A study of Mus musculus with 3 samples.

Results

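The Ly6 genes encode small surface proteins of haematopoietic and other cells. The set described here was given as a list of 10 mouse genes (Ly6a, Ly6c1, Ly6c2, Ly6d, Ly6e, Ly6g, Ly6i, Ly6k, Ly6g6d and Ly6g5b), and all 10 were found by symbol among the 55536 annotated genes of the gene tables, of which 22028 were protein-coding. The libraries were 3 polyA-selected RNA-seq libraries of activated regulatory T cells (Treg, a class of CD4 T cell that holds back immune responses), made as technical replicates 1, 2 and 3 of 1 biosample from a male mouse aged 9 weeks. The labels do not give the strain, the means of activation or the sort, and there was a single group, so no condition was compared with another. Each SD given here is therefore a technical spread.

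Ly6 proteins carry a compact finger-shaped domain held together by disulfide bonds between cysteines, and most are tied to the outer membrane leaflet by a glycosylphosphatidylinositol (GPI) anchor instead of a membrane-spanning segment. Several are used as antibody markers of blood cell types: the Ly6a product (Sca-1) marks mouse haematopoietic stem cells and activated lymphocytes, the Ly6c1 and Ly6c2 products (together the antigen Ly-6C) mark inflammatory monocytes and memory T cells, and the Ly6g product marks neutrophils. Ly6a and Ly6e are known to respond to interferon in mouse lymphocytes.

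The libraries held 31445344, 32612609 and 37259281 expected counts in libraries 1, 2 and 3. Levels are given as TPM (transcript abundance corrected for transcript length and library size). Detection was set at 1 TPM or more in each of the 3 libraries. The T cell markers were detected in 9 of 9 cases and the Treg markers in 8 of 8, with Foxp3, the lineage factor of Treg cells, at 135 ± 2.65 TPM (SD, n = 3). Of the markers of other cells, 2 of 12 neutrophil, 4 of 10 monocyte, 0 of 8 endothelial, 6 of 8 B and plasma cell, 3 of 6 plasmacytoid dendritic cell, 1 of 6 epithelial, 1 of 6 progenitor and 6 of 8 CD8 and NK genes were detected. In bulk RNA, fewer cells of a type and less RNA per cell cannot be told apart.

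The coding sequences are shown first because the members' reads can be told apart only where their sequences differ. The lines below give 60 bases near the start of the coding sequence, coding bases 6 to 65, of Ly6c1 and of the 5 members aligned with it, from GENCODE M21 transcripts on mm10, read 5′ to 3′ on the strand of the gene. Capitals mark bases that differ from Ly6c1. They lie at chr15:75048447-75048506 (minus strand, Ly6c1), chr15:75111603-75111662 (minus, Ly6c2), chr15:74997540-74997599 (minus, Ly6a), chr15:74982995-74983054 (minus, Ly6i), chr15:75155650-75155709 (plus, Ly6g) and chr15:74957813-74957872 (plus, Ly6e).
Ly6c1: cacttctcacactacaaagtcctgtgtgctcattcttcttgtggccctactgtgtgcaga
Ly6c2: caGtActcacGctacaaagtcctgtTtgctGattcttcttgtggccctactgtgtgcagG
Ly6a: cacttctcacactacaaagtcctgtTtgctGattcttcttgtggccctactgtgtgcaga
Ly6i: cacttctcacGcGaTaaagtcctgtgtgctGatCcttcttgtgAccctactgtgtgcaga
Ly6g: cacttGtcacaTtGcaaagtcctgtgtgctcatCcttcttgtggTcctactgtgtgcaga
Ly6e: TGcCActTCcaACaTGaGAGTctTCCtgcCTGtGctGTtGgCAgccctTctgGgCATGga
This window was the one with the most differences between Ly6c1 and Ly6c2, and held 6 of them. Ly6a differed from Ly6c1 at 2 bases there, Ly6i at 6, Ly6g at 5 and Ly6e at 32. In alignments of the coding sequences, identity was taken over aligned bases, with gaps left out. Ly6c1 and Ly6c2 were identical at 384 of 393 bases (97.7%). Ly6a was 86.3% identical to Ly6i, 83.7% to Ly6c1 and 83.1% to Ly6g, but only 64.6% (237 of 367 aligned bases) to Ly6e, the other abundant member. By the same measure it was 68.5% identical to Ly6d, 68.0% to Ly6g5b, 67.7% to Ly6k and 64.5% to Ly6g6d.

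The longest coding stretch without a difference between Ly6c1 and Ly6c2 was 77 bases, coding bases 169 to 245, longer than the 50-base reads. It crosses from exon 3 to exon 4 of both genes, with its ends at chr15:75045553-75047371 in Ly6c1 and chr15:75108694-75110529 in Ly6c2 (mm10, minus strand, the intron between left out of the sequence). It is printed once for both genes, in lower case since no base differs.
Ly6c1 and Ly6c2: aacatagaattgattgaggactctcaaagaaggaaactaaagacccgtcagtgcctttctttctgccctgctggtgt
A read lying wholly in this stretch cannot be assigned to either gene by its sequence. The coding sequences of all 10 members were short, between 381 bases (Ly6d) and 582 bases (Ly6g5b) without the stop codon, and held between 10 and 13 cysteine codons.

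By TPM, Ly6e and Ly6a held nearly all of the summed level of the 10 members. The 10 members summed to 5479, 5455 and 5431 TPM in libraries 1, 2 and 3. Ly6e took 63.9% ± 0.585 of this sum and Ly6a 34.0% ± 0.299, and the other 8 members took 2.11% ± 0.294 together (SD, n = 3). Of the 10 members, 8 were detected, against 47.3% of protein-coding genes. The members were chosen with earlier results of these data known, so this share is a description only. The detected members covered a wide range of levels, with a 33.4-fold gap in mean TPM between Ly6a and the next gene, Ly6c1. In the smaller gene table, a separate deposited quantification in whole counts in which Ly6e and Ly6a had far fewer counts, Ly6a exceeded Ly6c1 by 2.03 ± 0.09 on the log2 scale of counts, and the other 8 members held 25.4%, 25.1% and 23.5% of the members' counts in libraries 1, 2 and 3. Ly6e had 1096, 1105 and 1129 counts there, from 73223, 76933 and 87881 expected counts in the larger table. The gap and the share in the smaller table are therefore not a second measure of abundance.

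Ly6e encodes an interferon-responsive surface protein first known from thymocytes as thymic shared antigen, and in mouse placenta it serves as the receptor of syncytin-A. It lies on chromosome 15 (ENSMUSG00000022587.14, mm10 chr15:74955051-74959905, plus strand). Ly6e stood at 3489, 3463 and 3507 TPM in libraries 1, 2 and 3 (3486 ± 22.3, SD, n = 3), from 73223, 76933 and 87881 expected counts. All 3 libraries lay close together, and Ly6e ranked 11 among 22028 protein-coding genes by mean TPM. It took 0.235% ± 0.00181 of all counts of annotated genes. The protein-coding genes closest to it over the 3 libraries were Cd52 (3536 ± 68.8 TPM), which encodes another GPI-anchored lymphocyte protein, the cyclophilin A gene Ppia (3403 ± 54.0 TPM) and Shisa5 (3402 ± 89.8 TPM), which encodes an endoplasmic reticulum protein. Their distances to Ly6e in log2(TPM + 0.1) over 3 libraries were 0.0605, 0.0669 and 0.0795.

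Ly6a encodes Sca-1, the stem cell antigen that T cells raise on activation. It lies on the same chromosome (ENSMUSG00000075602.10, chr15:74994877-74998031, minus strand). Its levels were 1865, 1868 and 1828 TPM (1853 ± 22.5, SD, n = 3), from 28017, 29871 and 32942 expected counts. The libraries again lay close together, and Ly6a ranked 36. Ly6e exceeded Ly6a by 0.91 ± 0.03 on the log2(TPM + 0.1) scale, a 1.88-fold ratio of mean TPM that held in each library. A difference was called larger than the spread where all 3 libraries gave it the same direction and the mean was above 2 SD, since the smallest p of an exact sign-flip test is 0.25 with 3 libraries. The genes closest in level to Ly6a were Crip1 (1866 ± 47.1 TPM), which encodes a small LIM-domain protein, Fxyd5 (1893 ± 22.9 TPM), a regulator of the sodium pump, and Oaz1 (1850 ± 51.0 TPM), the inhibitor of ornithine decarboxylase. Their distances to Ly6a were 0.0551, 0.0603 and 0.075.

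**Figure D1:**
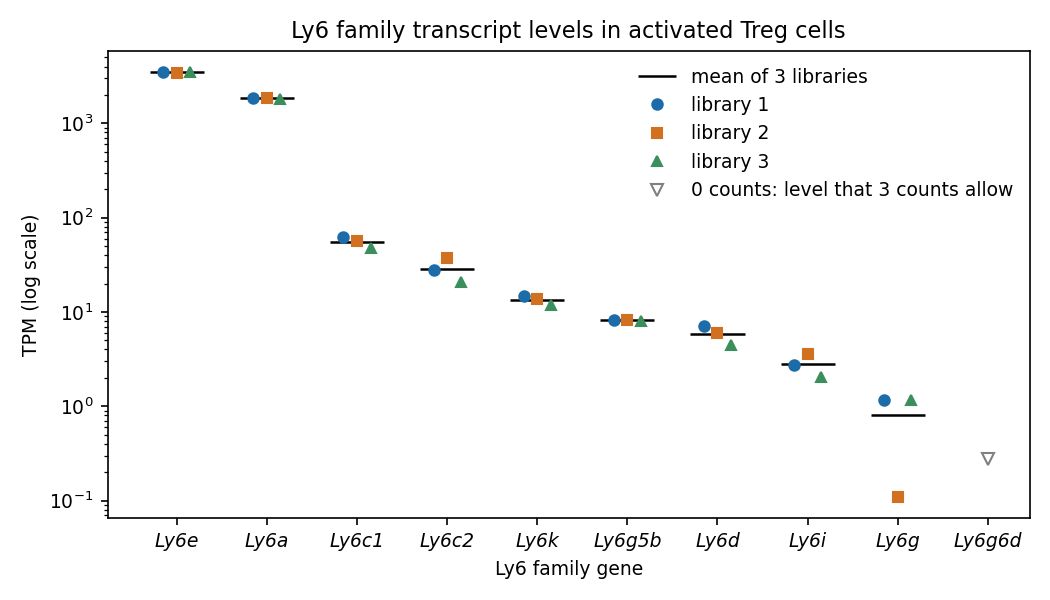
TPM of each Ly6 member (log axis) in libraries 1, 2 and 3, with the mean as a bar; the open triangle marks the level that 3 counts would give for Ly6g6d, which had 0 counts. Ly6e (3486 TPM) and Ly6a (1853 TPM) stand far above the other members, and Ly6g is far lower in library 2 (0.11 TPM) than in libraries 1 and 3.

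Ly6c1 and Ly6c2 encode the near-identical forms of Ly-6C. Ly6c1 (ENSMUSG00000079018.10, chr15:75044018-75048830, minus strand) stood at 62.6, 56.1 and 47.9 TPM (55.5 ± 7.36, SD, n = 3), from 961, 915 and 879 expected counts. Ly6c2 (ENSMUSG00000022584.14, chr15:75108158-75111970, minus strand) stood at 28.1, 37.2 and 20.8 TPM (28.7 ± 8.20), from 426, 601 and 381 expected counts. Ly6c1 was highest in library 1 and Ly6c2 in library 2, both were lowest in library 3, and the ranges of the genes did not overlap. Ly6a exceeded Ly6c1 by 5.07 ± 0.18 on the log2 scale, and Ly6c1 exceeded Ly6c2 by 0.98 ± 0.34. The Ly6c1 to Ly6c2 ratio of TPM was 2.23, 1.51 and 2.30 in libraries 1, 2 and 3. In the smaller gene table, the ratio of counts was 1.73, 1.29 and 1.79. The order of the pair was the same in both tables, and library 2 had the lowest ratio in both.

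Reads were divided between genes where they matched more than 1. A member was marked as sharing reads where its expected count was not whole, beyond a tolerance of 0.005, in at least 1 library. This held for 5 of 10 members (Ly6a, Ly6c1, Ly6c2, Ly6i and Ly6k), all detected, so for 5 of 8 detected members, against 50.1% of detected protein-coding genes. Of the 50-base windows of Ly6c1-201, the leading Ly6c1 transcript, 36.7% (292 of 795) also occurred in transcripts of another gene, 252 of them in Ly6c2. The share was 33.0% (255 of 773) in Ly6c2, 8.05% (62 of 770) in Ly6a and 4.97% (55 of 1107) in Ly6i. For Ly6a the partners were Ly6i (31 windows), the pseudogene I830127L07Rik (20 windows), Ly6c1 (11 windows) and Ly6c2 (3 windows). Ly6g shared 0.448% (4 of 892), and Ly6e, Ly6d, Ly6g5b and Ly6g6d shared no window with another gene.

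The deposited uncertainty of the division was small for Ly6a and larger for the Ly-6C genes. The deposited posterior SD of the count was 4.75, 5.06 and 5.01 counts in Ly6a, 0.0152% to 0.017% of its expected count. It was 12.56, 14.87 and 12.70 counts in Ly6c1, between 1.31% and 1.62%, and 11.93, 13.95 and 11.52 counts in Ly6c2, between 2.32% and 3.02%. The deposited TPM intervals, whose level was not given in the sources used here, ran from 54.7 to 62.8, from 49.1 to 56.8 and from 42.3 to 49.0 TPM for Ly6c1 in libraries 1, 2 and 3. For Ly6c2 they ran from 23.8 to 29.8, from 32.1 to 38.9 and from 17.9 to 22.8 TPM. In no library did the intervals of Ly6c1 and Ly6c2 overlap, and the 3 intervals of Ly6c2 did not overlap each other. Summed, the pair gave 90.7, 93.25 and 68.8 TPM, so the total was also lowest in library 3.

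**Figure D2:**
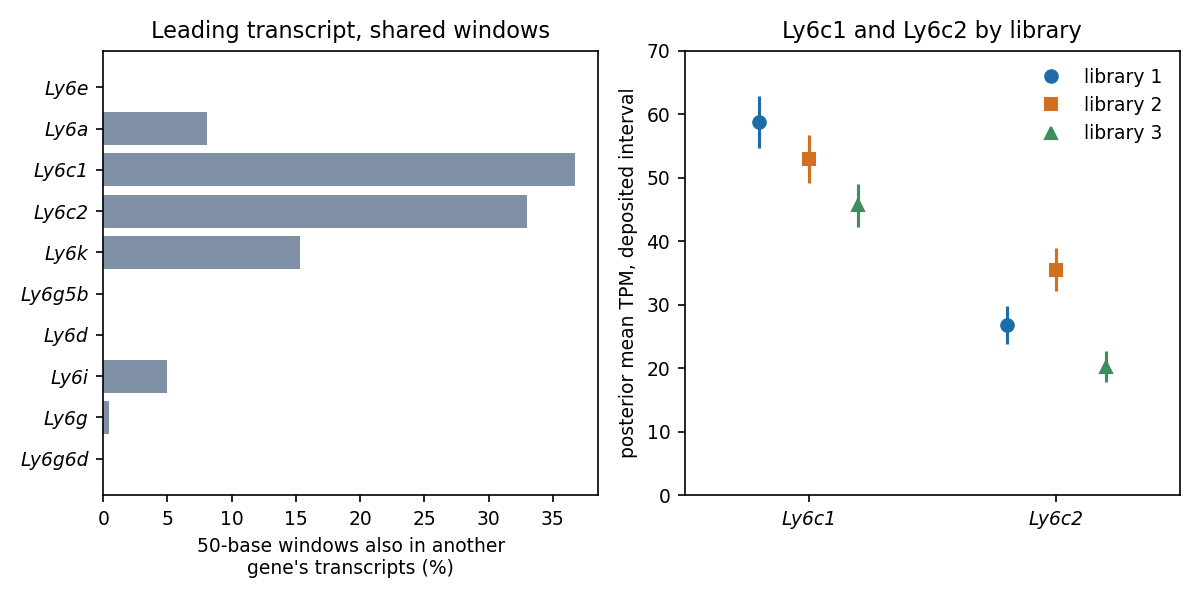
Left, share of the 50-base windows of each member's leading transcript that also occur in transcripts of another gene (%); right, deposited posterior mean TPM of Ly6c1 and Ly6c2 in libraries 1, 2 and 3, with the deposited interval as a line. Ly6c1 (36.7%) and Ly6c2 (33.0%) share the most windows, yet their intervals do not overlap in any library.

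The markers of cells that carry Ly-6C were measured beside these genes. Endothelium, which expresses Ly6c1 in mouse, gave 0.83, 1.28 and 1.70 TPM summed over 8 markers, with Tek at 0 in all libraries. The 10 monocyte markers summed to 245, 238 and 255 TPM, of which the chemokine receptor gene Ccr2, also used by T cells, gave 206 ± 5.21 TPM (SD, n = 3). Lyz2 (24.9 ± 6.03 TPM), Ms4a6c (8.76 ± 1.27 TPM) and Csf1r (5.09 ± 1.07 TPM) were also detected. The other monocyte markers, Cd14 and Chil3 among them, each averaged under 1 TPM, and none was at 0 in all libraries. The 8 CD8 and NK markers summed to 367, 366 and 358 TPM, mostly from the cytotoxic granule gene Nkg7 (335 ± 4.16 TPM). Ccr2 made up most of the monocyte sum in libraries 1, 2 and 3 (206, 200 and 211 TPM), so the sum cannot track monocyte RNA alone. Lyz2 gave 21.1, 21.6 and 31.8 TPM in the same libraries. The part of other cells in the Ly-6C levels was not tested.

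Ly6k encodes a sperm protein needed for male fertility in mouse, and was measured here at 14.7, 13.7 and 11.8 TPM (13.4 ± 1.47, SD, n = 3; ENSMUSG00000044678.11, chr15:74796874-74799986, minus strand). These came from 167, 165 and 161 expected counts. Ly6k lay wholly within the antisense gene Gm17189, over 3113 bp, and 86 of 563 windows of Ly6k-202 (15.3%) also occurred in Gm17189 transcripts. Gm17189 itself had 2.22, 1.09 and 0 expected counts. Ly6k also had non-whole counts in libraries 1 and 2 (166.78 and 164.91), and only Gm17189 shared windows with Ly6k-202. Reads were thus divided between these genes of opposite strand in libraries 1 and 2. The strand setting was not given in the sources used here. Without strand, reads from the shared windows cannot be assigned to either gene by sequence, whereas the other windows of Ly6k-202 did not occur in annotated Gm17189 transcripts. Ly6c2 exceeded Ly6k by 1.06 ± 0.33 on the log2(TPM + 0.1) scale, larger than the spread.

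Ly6d encodes an antigen of early B-lineage cells and keratinocytes (ENSMUSG00000034634.7, chr15:74762056-74763620, minus strand). Its levels were 7.17, 5.98 and 4.44 TPM (5.86 ± 1.37, SD, n = 3), from 97, 86 and 72 whole counts. It was highest in library 1 and lowest in library 3. The B and plasma cell markers summed to 70.3, 45.2 and 61.8 TPM, with 6 of 8 detected and none at 0. The plasmacytoid dendritic cell markers summed to 75.6, 70.1 and 70.6 TPM, mostly from Irf8 (56.0 ± 3.09 TPM), with Klk1 at 0. Among the epithelial markers, Epcam was detected (30.4 ± 2.30 TPM), and Krt18, Cdh1 and Krt8 each averaged under 1 TPM. The keratin genes Krt5 and Krt14 were at 0 in all libraries. The part of other cells in the Ly6d level was not tested.

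Ly6i, a close relative of Ly6a known from mouse myeloid cells, lies between Ly6e and Ly6a (ENSMUSG00000022586.11, chr15:74979534-74983430, minus strand). It was 19628 bp from Ly6e and 11446 bp from Ly6a. Despite these neighbours it had only 2.75, 3.56 and 2.06 TPM (2.79 ± 0.751, SD, n = 3), from 54.3, 67.3 and 47.3 expected counts. Library 2 was highest and library 3 lowest. Ly6d exceeded Ly6i by 1.05 ± 0.31 on the log2(TPM + 0.1) scale.

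Ly6g encodes the antigen used to sort mouse neutrophils (ENSMUSG00000022582.4, chr15:75155240-75159126, plus strand). It had 1.15, 0.11 and 1.16 TPM (0.807 ± 0.603, SD, n = 3), from 20, 2 and 15 counts, and was not detected under the threshold because of library 2. Among the neutrophil markers, the alarmin genes S100a8 (7.76, 0 and 0.20 TPM) and S100a9 (5.77, 0.10 and 0.28 TPM) and the granule gene Ngp (4.69, 0.45 and 0.44 TPM) were all highest in library 1. The 12 markers summed to 63.4, 36.8 and 41.4 TPM, of which the protease gene Mmp9 gave 37.8, 33.7 and 38.8 TPM, and none was at 0 in all libraries. Csf3r was highest in library 2 (0.18, 0.57 and 0.15 TPM). Scaled to library size without length, Ly6g had 0.635, 0.0613 and 0.405 CPM, highest in library 1 and lowest in library 2. Its TPM in library 3 rested on an effective length of 555 bases, against 892 bases in libraries 1 and 2, since 4.32 of its 15 counts, with a posterior SD of 2.04, were assigned to the shorter transcript Ly6g-201. The part of neutrophil RNA in the Ly6g level was not tested. The difference between Ly6i and Ly6g, 2.03 ± 1.82 on the log2 scale, was not larger than the spread.

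The remaining members lie on chromosome 17, in the class III region of the major histocompatibility complex. Ly6g5b (ENSMUSG00000043807.6, chr17:35113948-35115428, minus strand) stood at 8.22, 8.13 and 8.0 TPM (8.12 ± 0.111, SD, n = 3), from 164, 177 and 192 counts. It was the steadiest of the low members. It lies 767 bp from the protein kinase subunit gene Csnk2b on the same strand, which stood at 331, 326 and 325 TPM. Ly6k exceeded Ly6g5b by 0.71 ± 0.14 on the log2 scale, whereas the 0.49 ± 0.32 between Ly6g5b and Ly6d was not larger than the spread. Over all 8 neighbouring pairs in the order of levels, 6 differed by more than the spread.

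Ly6g6d, known in human as an antigen of colorectal tumours, had 0 counts in all 3 libraries (ENSMUSG00000073413.9, chr17:35071443-35078065, minus strand). A count of 0 allows up to 3 counts, equal to 0.300, 0.282 and 0.250 TPM in libraries 1, 2 and 3, for counting error only. It overlaps Ly6g6e on the opposite strand by 1164 bp, and that gene was also at 0. Its expression was therefore not detectable at this depth.

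The chromosome 15 members span 397 kb from the start of Ly6d to the end of Ly6g. Between Psca and Gpihbp1, the outer Ly6-type genes of this cluster, the annotation held 25 protein-coding genes, of which 8 were detected. Of these, 7 were listed members, and the other was Them6 (4.13 ± 0.544 TPM, SD, n = 3). Counts were 0 in all libraries for 11 of the 25, among them Ly6f, Ly6l, Gml and Gml2. None of the 20 pseudogenes between them was detected, and 12 were at 0. In the chromosome 17 cluster, from Ly6g6c to Csnk2b, 4 of 10 protein-coding genes were detected and 5 were at 0. Along the chromosome, the abundant genes Ly6e and Ly6a were separated by the low gene Ly6i.

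**Figure D3:**
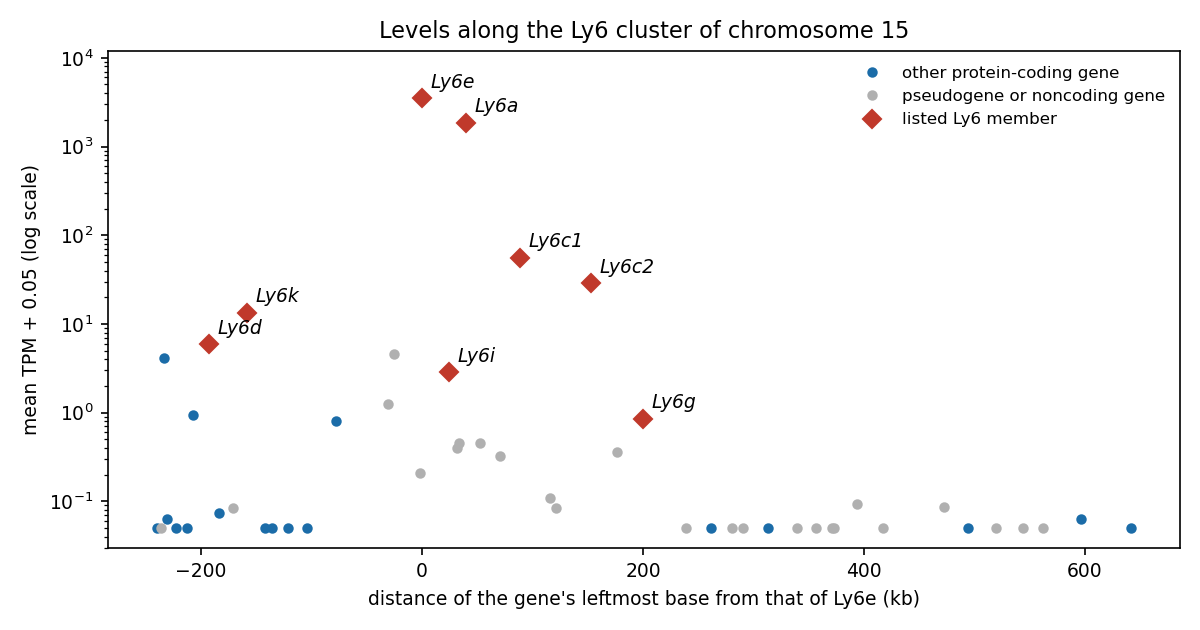
Mean TPM plus 0.05 (log axis) of the annotated genes of the chromosome 15 cluster against the distance of their leftmost base from that of Ly6e (kb), with listed members as diamonds. Ly6e, Ly6a, Ly6c1 and Ly6c2 lie within 153.1 kb of each other by this measure, and Ly6i (2.79 TPM) lies between Ly6e and Ly6a.

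Promoters are shown for the 3 members of this cluster that matched the RefSeq promoter table, because similar start regions stood before genes of unequal level. The table matched 5 of 10 members: Ly6c1, Ly6c2, Ly6g, Ly6g6d and Ly6g5b. Ly6a, Ly6d, Ly6e, Ly6i and Ly6k were not matched. The 250 bases before the RefSeq start are printed 5′ to 3′ on the strand of the gene (GRCm38.p6), at chr15:75048838-75049087 (minus strand, Ly6c1), chr15:75111972-75112221 (minus, Ly6c2) and chr15:75155011-75155260 (plus, Ly6g). Capitals mark the motif TATAAA, the core of a TATA box.
Ly6c1: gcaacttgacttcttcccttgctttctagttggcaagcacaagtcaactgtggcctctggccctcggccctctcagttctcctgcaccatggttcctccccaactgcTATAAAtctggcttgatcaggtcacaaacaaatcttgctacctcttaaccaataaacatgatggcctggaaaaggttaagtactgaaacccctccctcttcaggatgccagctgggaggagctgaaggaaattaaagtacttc
Ly6c2: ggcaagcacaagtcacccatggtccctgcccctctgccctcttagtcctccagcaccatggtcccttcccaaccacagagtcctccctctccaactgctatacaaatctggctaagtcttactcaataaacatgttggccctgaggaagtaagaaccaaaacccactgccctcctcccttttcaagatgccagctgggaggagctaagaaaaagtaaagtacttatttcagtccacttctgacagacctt
Ly6g: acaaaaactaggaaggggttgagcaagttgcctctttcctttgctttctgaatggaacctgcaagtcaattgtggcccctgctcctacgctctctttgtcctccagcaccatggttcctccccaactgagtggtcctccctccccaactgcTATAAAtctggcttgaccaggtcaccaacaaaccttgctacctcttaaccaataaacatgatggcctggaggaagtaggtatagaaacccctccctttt
Over the aligned parts of their 300-base regions, Ly6c1 was identical to Ly6g at 84.5% of 252 bases and to Ly6c2 at 78.2% of 266 bases, and Ly6c2 to Ly6g at 80.7% of 223 bases. The mean levels behind these start regions were 55.5 TPM for Ly6c1, 28.7 TPM for Ly6c2 and 0.807 TPM for Ly6g. TATAAA, searched on both strands of the 300-base regions, occurred in Ly6c1, with its first base at -143, counted back from the base just before the start, and in Ly6g, at -99. The printed Ly6c2 region held none. With 1 promoter per member, the one nearest to the start of its leading transcript, it was in 2 of 5 promoters. Over all 11 promoters the table holds for these 5 genes it was in 3, and over the whole table in 13.6% of 32851. TTCNNNGAA was in 0 of these 11 promoters and in 8.30% of all promoters, on both strands. The motifs do not overlap, and a match is a description of these letters only.

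Most members were carried by 1 transcript. Of the Ly6a TPM, 96.9% ± 0.288 fell on Ly6a-201 of 6 annotated transcripts (SD, n = 3), and of the Ly6e TPM 92.0% ± 0.399 fell on Ly6e-215 of 16. For Ly6e, 3 transcripts annotated as retaining an intron held 5.05% ± 0.248 together, led by Ly6e-216 (3.20% ± 0.116). Ly6c2-201 held 99.5% ± 0.103 and Ly6k-202 88.8% ± 0.362, and Ly6d had a single annotated transcript.

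Other members divided their level mainly between 2 transcripts, with estimated shares that were uneven over libraries. Ly6c1-201 held 77.8%, 92.0% and 73.8% of the Ly6c1 TPM in libraries 1, 2 and 3, and Ly6c1-202 held 19.2%, 5.99% and 22.7%. Library 2 thus differed from the others, but Ly6c1-202 rested on 184, 54.9 and 200 expected counts with deposited posterior SDs of 114, 97.2 and 106 counts. The ranges of 1 posterior SD around these counts overlapped. Ly6g5b-201 held 78.0%, 58.3% and 76.4%, and Ly6i-201 82.5%, 63.8% and 77.2%, both lowest in library 2. For Ly6g5b-201 the expected counts were 124, 97.9 and 142, with posterior SDs of 17.9, 24.7 and 17.4 counts. Ly6i-202 rested on 5.38, 15.2 and 6.22 expected counts, with posterior SDs of 5.31, 6.94 and 5.02 counts. For Ly6i-202 the ranges of 1 posterior SD overlapped.

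**Figure D4:**
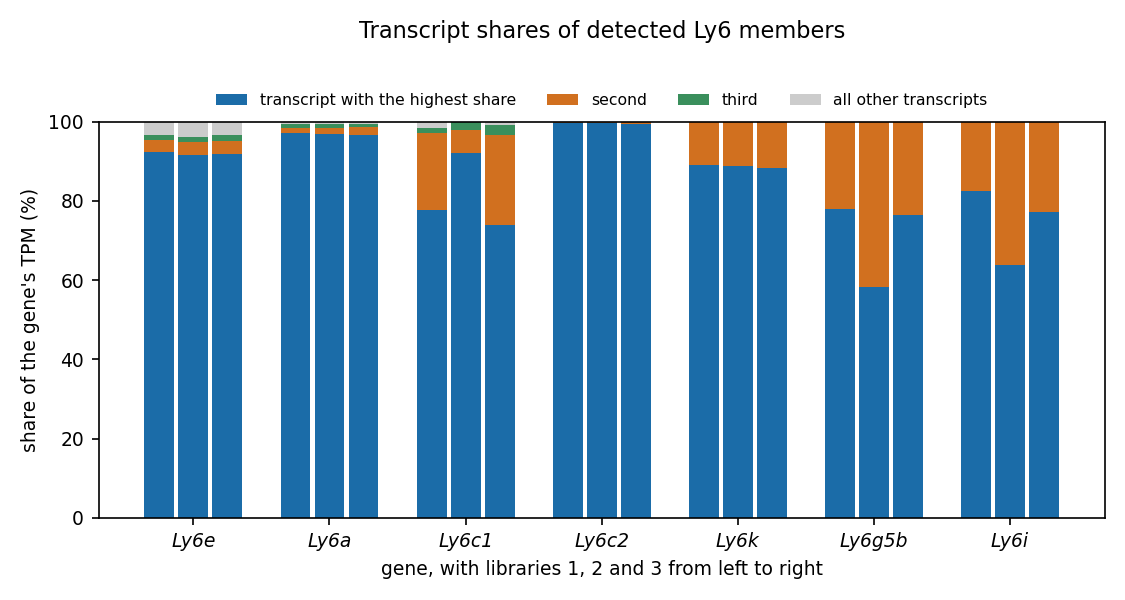
Share of each gene's TPM (%) on its transcripts, stacked from the highest share at the bottom, for the 7 detected members with more than 1 annotated transcript and for libraries 1, 2 and 3 from left to right. The bars of Ly6e, Ly6a, Ly6c2 and Ly6k are alike in all libraries, whereas those of Ly6c1, Ly6g5b and Ly6i differ in library 2.

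The spread of the members between libraries was then set against counting noise, with a chi-square test of rounded expected counts on TMM library sizes from edgeR and Benjamini-Hochberg adjustment over all 15945 annotated genes with a summed count of at least 30. Of the 9 members tested, 6 were called at an adjusted p under 0.05 (66.7%), against 65.6% of all genes tested, so the share of members called was close to that of all genes. The called members were Ly6c2 (adjusted p = 2.76e-17), Ly6c1 (1.57e-06), Ly6e (3.11e-04), Ly6a (7.87e-04), Ly6g (0.00151) and Ly6d (0.0197). Ly6i (0.0583), Ly6k (0.219) and Ly6g5b (0.91) were not called. Ly6g6d, at 0, was not tested.

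The size of the variation beyond counting noise differed widely among the called members. As a coefficient of variation it was 1.01% for Ly6e and 1.54% for Ly6a, which were called through their depth. It was 12.0% for Ly6c1, 19.6% for Ly6d, 28.7% for Ly6c2 and 73.3% for Ly6g, whose call was lost without library 2 (adjusted p = 0.294). Scaled to TMM library sizes, Ly6c2 had 13.5, 18.4 and 10.3 CPM (counts scaled to the library) in libraries 1, 2 and 3, and it was called whichever library was left out. Leaving out a library ended the other calls: Ly6e without library 1 (adjusted p = 0.379), Ly6a without library 2 (0.957), Ly6c1 without library 3 (0.114), and Ly6d without library 1 (0.0997) or library 3 (0.398). Ly6i was called without library 1 (0.0244). Divided by the overdispersion over all genes (a factor of 8.54), the chi-square test called 0 of 9 members, against 1.97% of genes. Before adjustment 1 member was under 0.05, Ly6c2 (adjusted p = 0.199). Of the 8 members tested by chi-square in the smaller table, Ly6c2 alone was called (adjusted p = 0.0481), against 33.4% of genes.

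The smaller table gave the members in another order. Ly6e had 1096, 1105 and 1129 counts there and Ly6a 732, 738 and 728, which were 1.28% to 1.5% and 2.21% to 2.61% of their expected counts. Ly6k, with 136, 132 and 134 counts, kept 80.0% to 83.2%. The most abundant members thus had the lowest shares. Ly6c1 had 192, 171 and 175 counts there, above Ly6k in each library. Ly6c2 had 111, 132 and 98 counts, equal to Ly6k in library 2 and below it in libraries 1 and 3. The counting method of that table was not given in the sources used here.

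The machinery that attaches GPI anchors was expressed throughout. All 20 GPI anchor synthesis genes in the table were detected, with a median of 18.1 TPM, against 47.3% of protein-coding genes detected. The median was 0.808 TPM over all protein-coding genes and 29.2 TPM over the detected ones, so the GPI anchor synthesis median lay below that of detected genes. They were led by Pigx (154 ± 1.56 TPM), a subunit of the first mannosyltransferase, and by the dolichol-phosphate mannose synthase genes Dpm2 (105 ± 3.74), Dpm1 (89.2 ± 3.41) and Dpm3 (70.2 ± 5.11 TPM), and Pigg was lowest (2.40 ± 0.467 TPM; all SD, n = 3). All 13 transamidase and remodelling genes were detected, with a median of 42.6 TPM. These were led by the cargo receptor genes Tmed2 (413 ± 7.07), Tmed9 (239 ± 12.7) and Tmed10 (140.0 ± 7.52 TPM), followed by the transamidase subunit gene Pigs (97.7 ± 2.51 TPM), and the inositol deacylase gene Pgap1 was lowest (5.15 ± 1.38 TPM).

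Of 17 other GPI-anchored lymphocyte protein genes, 11 were detected, with a median of 6.97 TPM. Cd52 (3536 ± 68.8 TPM) stood at the level of Ly6e. Izumo1r, the folate receptor-like gene of Treg cells (609 ± 18.9 TPM), the adhesion gene Cd48 (535 ± 3.15 TPM) and the ADP-ribosyltransferase gene Art2b (118 ± 5.41 TPM) followed, and Efna1 was at 0. Of the 36 other genes of the wider Ly6 and uPAR family in the table, 0 were detected and 18 had 0 counts in all libraries. The highest of them was Cd59b (0.82, 1.77 and 0.47 TPM), a complement inhibitor gene. The median of the 10 members was 10.8 TPM, against 0.00333 TPM in this wider family. Because the members and lists were chosen with earlier results of these data known, this contrast is a description and not a test. All 25 interferon response genes were detected, with a median of 103 TPM, among them Ifi27l2a (2539 ± 106 TPM), the GTPase gene Igtp (597 ± 10.6 TPM) and the transcription factor gene Irf1 (384 ± 16.8 TPM), and Ifi44 was lowest (1.67 ± 0.922 TPM).

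**Figure D5:**
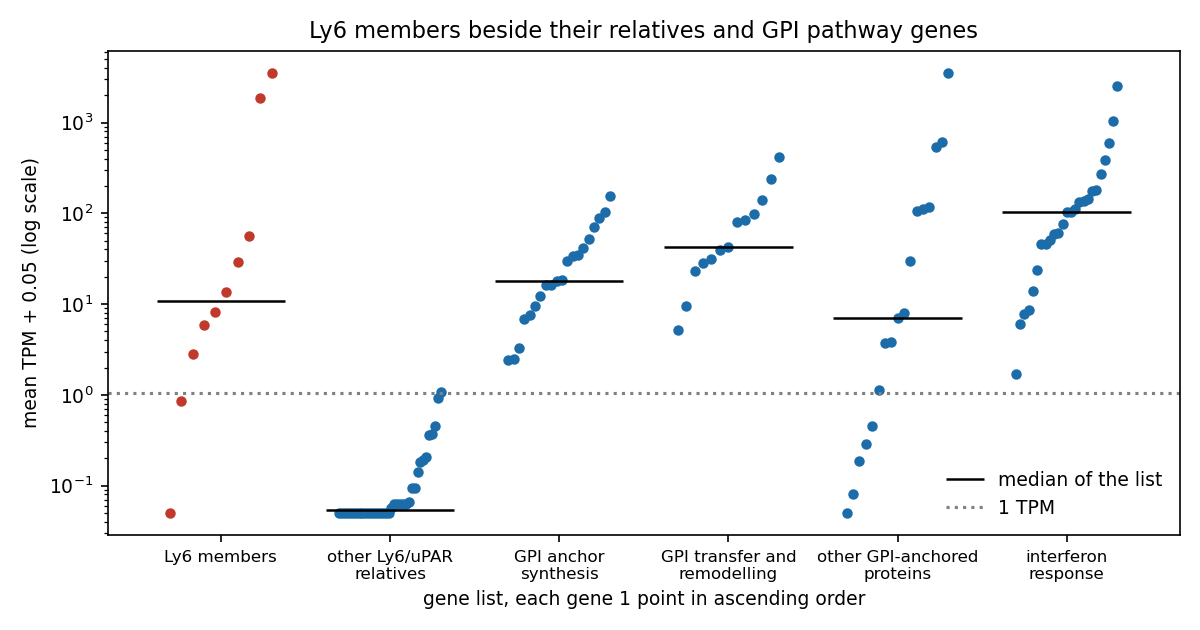
Mean TPM plus 0.05 (log axis) of each gene in the Ly6 set and in 5 other gene lists, each gene a point in ascending order, with the list median as a bar and a dotted line at 1 TPM. All genes of the GPI synthesis, GPI transfer and interferon lists lie above the line, and the highest mean among the other Ly6 and uPAR relatives is that of Cd59b (1.02 TPM).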

How the data were processed

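PolyA RNA-seq of 3 technical libraries of 1 biosample was analysed. Per the labels and the notes deposited with each sample, the authors made a larger gene table and a transcript table on mm10 with GENCODE M21, which hold expected counts (estimated counts that divide shared reads), TPM, FPKM, isoform percent, the posterior SD of the count and interval bounds of TPM. The authors deposited a smaller gene table of whole-number counts from another alignment (mm10, GENCODE M4). The aligner, the quantification program, the strand setting and the interval level were not given in the sources used here. Rows outside the annotation held 0.125%, 0.182% and 0.155% of counts and stayed out of library sizes. The smaller tables summed to 8827129, 8758421 and 9555924 counts, and 22195 of their 22457 genes matched the larger table.

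Members were matched by symbol through GENCODE M21. All members were named, with the 4 highest and the lowest gene of each other list, every detected gene of the wider family, and the 3 genes closest in level to each of the 2 highest members. Some genes that this rule names are not reported here. Genes outside this rule, Cd59b, Them6 and single markers among them, were named after their values were seen. The members and lists were chosen with earlier results of these data known. Expected counts were rounded for the chi-square test (2 degrees of freedom). A pseudocount of 0.1 was used for log2 differences of TPM. Alternatives changed thresholds, normalization, filters, tables and libraries. Without molecular identifiers reads are not independent molecules, so tests and floors cover counting error only, and the libraries measure technical spread. Tools were R 4.3.3, edgeR 4.0.16, DESeq2 1.42.0, Python 3.11.15, pandas 2.3.3, scipy 1.17.1, statsmodels 0.14.6, biopython 1.88 and mafft 7.526.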

Additional observations from a re-analysis of the deposited data

How the results depend on the processing

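No paired analysis was possible because the labels gave a single group. The number of members detected was 6 with a TPM threshold of 5, 9 without library 2 and 8 under the other alternatives. Between 5 and 7 of the neighbouring pairs exceeded the spread under the alternatives. The order turned round for Ly6c2 and Ly6k in the smaller table (-0.25 on the log2 scale), and the cause was not tested. It also turned round for Ly6k and Ly6g5b in CPM without length correction (-0.11). TPM divides their counts by effective lengths of 583 and 1026 bases in library 1, a step that CPM leaves out. Ly6a over Ly6c1 was 2.03 in the smaller table, against 5.07 by TPM. Ly6g5b exceeded Ly6d by more than the spread in CPM (1.04), in the smaller table (1.17) and without library 1 (0.64), Ly6i exceeded Ly6g without library 2 (0.98), and Ly6d over Ly6i was within the spread in the smaller table (0.62).

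Divided by the overdispersion, 314 of 15945 genes tested and 0 of 9 members varied between libraries. In the smaller table, where fewer genes were tested, 3842 of 11502 genes and 1 of 8 members did. With library 1, 2 or 3 left out, 7250 of 14956, 5999 of 14779 and 6675 of 14787 genes tested were called. Of the members tested, 4 of 8, 4 of 9 and 3 of 8 were called in the same order. With the larger table and all libraries, DESeq2 size factors, library totals and both other count filters kept the counts of genes and of members within 1.5 times. Members with shared reads numbered 5, or 6 when the rounded deposited transcript counts were summed. The added member was Ly6e, whose gene counts were whole with a posterior SD of 0 in each library. That addition therefore does not mark shared reads. The posterior mean TPM, chosen after seeing the data, was lower than the TPM for Ly6e (3245), Ly6a (1725) and Ly6g5b (7.61) by more than the spread. By counts in place of TPM, leading transcript shares moved to 96.6% (Ly6a), 98.5% (Ly6c2), 84.8% (Ly6i) and 85.7% (Ly6k). Depth limits Ly6g and Ly6g6d, at 20 counts or fewer in each library.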
